A study of Solanum lycopersicum with 12 samples.

Results

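The DCL2 family of tomato (Solanum lycopersicum) comprises DCL2a (locus Solyc06g048960.5), DCL2b (Solyc11g008540.3), DCL2c (Solyc11g008520.3) and DCL2d (Solyc11g008530.3). These 4 loci were taken by their identifiers from a table of small RNA reads at 34688 gene loci, of which 32258 held at least 1 read. They were chosen with earlier results of these data known, callus against cotyledon included, so that every such comparison of the copies is given here as a description without a test. The libraries were 3 each of callus collected after 12, 14 and 16 days of culture, and 3 of cotyledon, collected at day 0. Cotyledons were excised from seedlings 6 days after sowing and grown on SIM medium. Callus and cotyledon therefore differ in tissue, in time in culture and in medium together, and these cannot be told apart. The labels gave no cultivar, genotype or pooling of plants. The deposited identifiers carry no gene names, and the tissue labels were not checked against marker genes.

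Dicer-like proteins cut long double-stranded RNA into small RNAs. DCL2 enzymes make 22-nt small interfering RNAs (siRNAs), and DCL4 makes 21-nt siRNAs, both of which guide ARGONAUTE proteins to matching transcripts. In tomato the DCL2 transcripts are themselves targets of a 22-nt microRNA, and a 22-nt trigger is known to recruit RDR6, an RNA-dependent RNA polymerase, so that the cut transcript gives rise to phased secondary siRNAs. DCL2 copies of tomato are known for their part in defence against viruses. The reads counted here are small RNAs that matched the DCL2 loci, not DCL2 messenger RNA and not DCL2 protein.

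RefSeq's gene table for tomato (assembly SLM_r2.1) lists the symbol DCL2a on chromosome 6 and DCL2b, DCL2d and DCL2c on chromosome 11. In that table DCL2b, DCL2d and DCL2c follow each other with 0 genes in between, and the spans of DCL2b and DCL2d overlap. None of the deposited identifiers matched that table (0), so the copy names rest on the identifiers above. The 4 copies are related in sequence and 2 of them overlap in that annotation. The sources used here do not state how reads that match several loci, or either strand, were divided among loci, and the split of reads among the copies is uncertain to that extent. Whether such a read was counted once or at several loci is not stated either, so the family's sums and shares are uncertain as well.

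The 12 libraries held 456744 to 698312 gene reads each, 11.3% to 18.4% of the library total of 2769024 to 4799134 reads. That total is the number to which the deposited TPM had been scaled. Levels are given below as RPM, reads per 1000000 reads of that library total, or as CPM, reads per 1000000 gene reads. In a principal component analysis 4 libraries stood apart from the others of their group on the second component. These were day-12 replicate 3 (14.8), day-14 replicate 1 (42.9), day-16 replicate 3 (36.0) and cotyledon replicate 1 (18.1), whereas the other callus libraries lay between -23.2 and -9.28 and the other cotyledon libraries at -9.15 and -8.22. Cotyledon replicate 1 was also the library with the fewest DCL2 reads. The labels gave no batch or date.

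DCL2 loci were among the gene loci with the most small RNA reads in callus. In cotyledon the 4 copies together took 2.00%, 4.26% and 3.86% of all gene reads. The share was 16.3%, 17.01% and 13.7% after 12 days, 10.7%, 12.1% and 17.3% after 14 days, and 20.6%, 15.03% and 12.4% after 16 days. The 9 callus libraries averaged 15.02 ± 3.11% and the 3 cotyledon libraries 3.37 ± 1.21% (SD), and the lowest callus library was above the highest cotyledon library. Among 21-nt gene reads the family took 19.7% to 37.3% in callus and 3.76% to 5.97% in cotyledon. Among 22-nt gene reads it took 9.11% to 13.1% in callus and 5.37% to 10.2% in cotyledon, and here the 2 tissues overlapped. Because each library is RNA of a whole tissue piece, more cells with such reads and more reads per cell cannot be told apart.

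**Figure D1:**
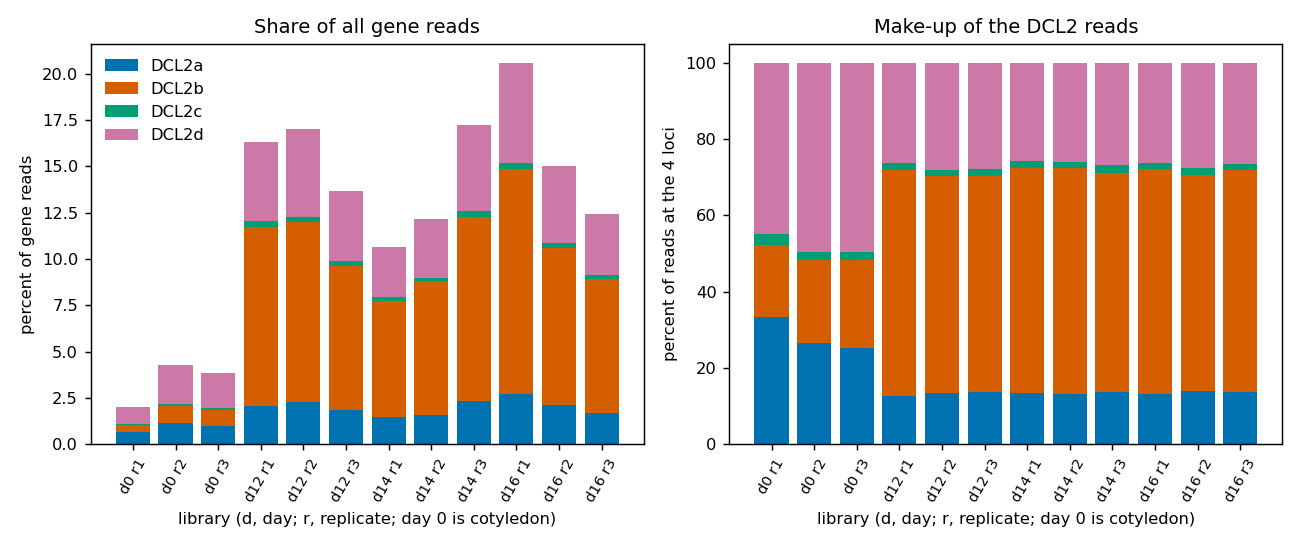
Percent of all gene reads taken by each DCL2 copy (left) and percent of the reads at the 4 copies that each copy took (right), 1 bar per library (d, day; r, replicate), with cotyledon (day 0) before 12-, 14- and 16-day callus. The callus bars reach 10.7% to 20.6% and the cotyledon bars 2.00% to 4.26%, and DCL2b holds 56.6% to 59.3% of the family's reads in callus and 18.9% to 23.1% in cotyledon.

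DCL2b, on chromosome 11, had the most reads of the 4 copies in every callus library and fewer than DCL2d and DCL2a in every cotyledon library. Its 21-nt RPM were 255, 897 and 745 in cotyledon, and 11027, 10780.4 and 9538 after 12 days. They were 5804, 8845 and 9888 after 14 days and 12455, 8370.2 and 7285 after 16 days. All 9 callus libraries were above all 3 cotyledon libraries, and the mean was 14.8-fold higher in callus (9333 ± 2027 RPM against 633 ± 335 RPM in cotyledon, SD). In 22-nt RPM 12.6% of 533 loci were higher in every callus library than in every cotyledon library. DCL2b was the one copy among them, by a narrow margin (678 in day-14 replicate 1 against 662 in cotyledon replicate 2). It had 250.3, 662 and 612.5 22-nt RPM in cotyledon, 1219, 1460.4 and 1107 after 12 days, 678, 859 and 1121 after 14 days, and 1054, 900.5 and 789 after 16 days. The mean was 2.01-fold higher in callus (1021 ± 241 against 508 ± 225 in cotyledon, SD).

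DCL2d, the copy whose span overlaps DCL2b in RefSeq, had the most reads in every cotyledon library. Its 21-nt RPM were 605, 1819.9 and 1353 in cotyledon, 4669, 5066 and 4369.6 after 12 days, 2364, 3724 and 4413 after 14 days, and 5389.7, 3896 and 3115 after 16 days. The callus libraries were all above the cotyledon libraries, by 3.27-fold on the means. Its 22-nt reads went the other way on the means, which were 718 ± 176 in callus and 1319 ± 602 in cotyledon (SD, 0.544-fold). The callus libraries had 481 to 1013, and of the cotyledon libraries replicate 1 lay in that range at 634 and replicates 2 and 3 above it at 1766 and 1557.

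DCL2a, the copy on chromosome 6, differed least between the tissues in 21-nt reads. It had 654, 1372 and 1031 21-nt RPM in cotyledon, 2422, 2604 and 2292 after 12 days, 1332, 1984 and 2347 after 14 days, and 2871, 2103 and 1712 after 16 days. The callus mean was 2.14-fold the cotyledon mean, and day-14 replicate 1 lay below cotyledon replicate 2. Its 22-nt reads averaged 262 ± 57.7 in callus and 437 ± 145 in cotyledon (0.598-fold), with overlap through cotyledon replicate 1 at 274.

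DCL2c, the copy with the fewest reads, had 43.8, 86.6 and 74.8 21-nt RPM in cotyledon. It had 320.1, 295 and 299 after 12 days, 163, 235 and 311.5 after 14 days, and 324, 251 and 202 after 16 days. The callus libraries were all above the cotyledon libraries, by 3.90-fold on the means. Its 22-nt reads averaged 37.1 ± 9.88 in callus and 38.6 ± 14.2 in cotyledon and overlapped. DCL2c held only 309, 479 and 385 reads of all lengths in the cotyledon libraries, and its ratios there are the least precise of the family.

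**Figure D2:**
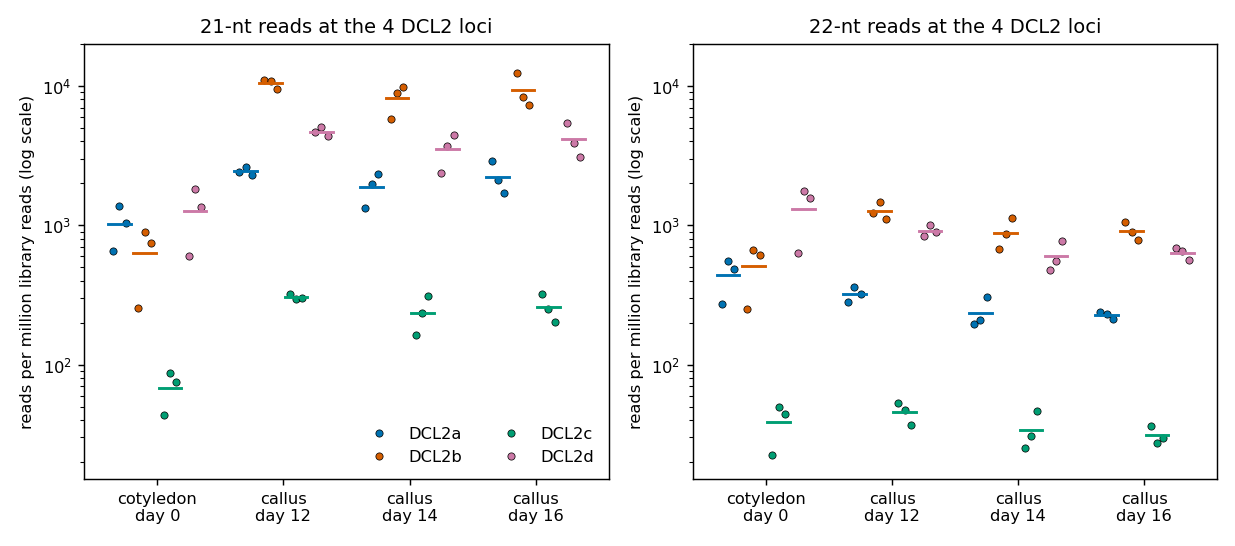
RPM of 21-nt reads (left) and 22-nt reads (right) at the 4 DCL2 copies, on log axes, in 3 libraries each of cotyledon (day 0) and of 12-, 14- and 16-day callus; points are libraries and bars are group means. The 21-nt reads of DCL2b averaged 9333 in callus and 633 in cotyledon, whereas the 22-nt reads of DCL2a and DCL2d averaged less in callus than in cotyledon.

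All lengths together, all 4 copies were higher in every callus library than in every cotyledon library in CPM. The same held for 12.9% of the 6729 loci with enough reads, and nothing is read from the count of copies, since they were chosen on this contrast. The folds were 2.18 for DCL2a, 11.9 for DCL2b, 3.50 for DCL2c and 2.45 for DCL2d. In RPM they were 1.67, 9.03, 2.70 and 1.87, and DCL2a and DCL2d then overlapped between the tissues. On that scale 7.71% of all loci were higher in every callus library, as were 14.3% of 685 loci in 21-nt reads and 12.6% of 533 loci in 22-nt reads. In the fit of edgeR's quasi-likelihood model over all loci, the log2 change of callus over cotyledon was 1.05 (SE 0.25) for DCL2a, 3.49 (SE 0.35) for DCL2b, 1.74 (SE 0.25) for DCL2c and 1.21 (SE 0.29) for DCL2d. Of all loci, 40.9% were called over all callus in either direction, and 33.7%, 31.4% and 31.1% for days 12, 14 and 16 alone, and the copies' own calls are not counted for the reason above. The median over all 6729 loci was 0.13 in that fit and -0.16 when scaled by library totals. Without the 4 libraries that stood apart, the log2 changes were 0.93, 3.27, 1.63 and 1.01 in the same order of copies.

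The difference between the 2 read lengths also stood in the authors' deposited table, which holds the same days against day 0. That table comes from the same libraries and is not separate support. The sources used here do not state how each length was scaled in it. For DCL2b the authors' deposited table gave 21-nt log2 fold changes over day 0 of 4.34, 4.30 and 4.41 at days 12, 14 and 16, and 22-nt changes of 1.44, 1.28 and 1.35. For DCL2d the authors' deposited table gave 2.18, 2.07 and 2.22 for 21-nt reads and -0.39, -0.64 and -0.56 for 22-nt reads. For DCL2c the authors' deposited table gave 2.40, 2.35 and 2.39 for 21-nt reads and 0.36, 0.29 and 0.18 for 22-nt reads. For DCL2a the authors' deposited table gave 1.51, 1.46 and 1.61 for 21-nt reads and -0.33, -0.42 and -0.47 for 22-nt reads. The 22-nt changes of DCL2a and DCL2d had adjusted p above 0.05 in the authors' deposited table (adjusted p = 0.139 to 0.350), as had those of DCL2c (adjusted p = 0.478 to 0.851).

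The lengths of the reads at each copy need no scaling between libraries. In callus DCL2d had 78.9 ± 1.89% of 21 nt and 13.9 ± 1.73% of 22 nt (SD, n = 9 callus and 3 cotyledon libraries throughout). In cotyledon it had nearly equal parts of both lengths, 45.2 ± 1.99% of 21 nt and 47.6 ± 2.05% of 22 nt, and was the one copy with more 22-nt than 21-nt reads on average. DCL2b had 82.9% of 21 nt and 9.10% of 22 nt in callus, against 49.7% and 41.8% in cotyledon. DCL2a had 84.1% and 10.2% in callus, against 65.6% and 28.2% in cotyledon, and DCL2c had 78.4% and 10.9% in callus, against 53.9% and 30.1% in cotyledon. Reads of 20 nt made up 2.88% to 4.0% of a copy's reads on average in callus and 3.0% to 3.59% in cotyledon. Reads of 24 nt, the length that DCL3 makes in heterochromatic silencing, averaged 0.728% to 2.00% of a copy's reads in callus and 0.627% to 5.65% in cotyledon. The upper cotyledon value is DCL2c, where 11.3% of the reads in replicate 1 were 24 nt.

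**Figure D3:**
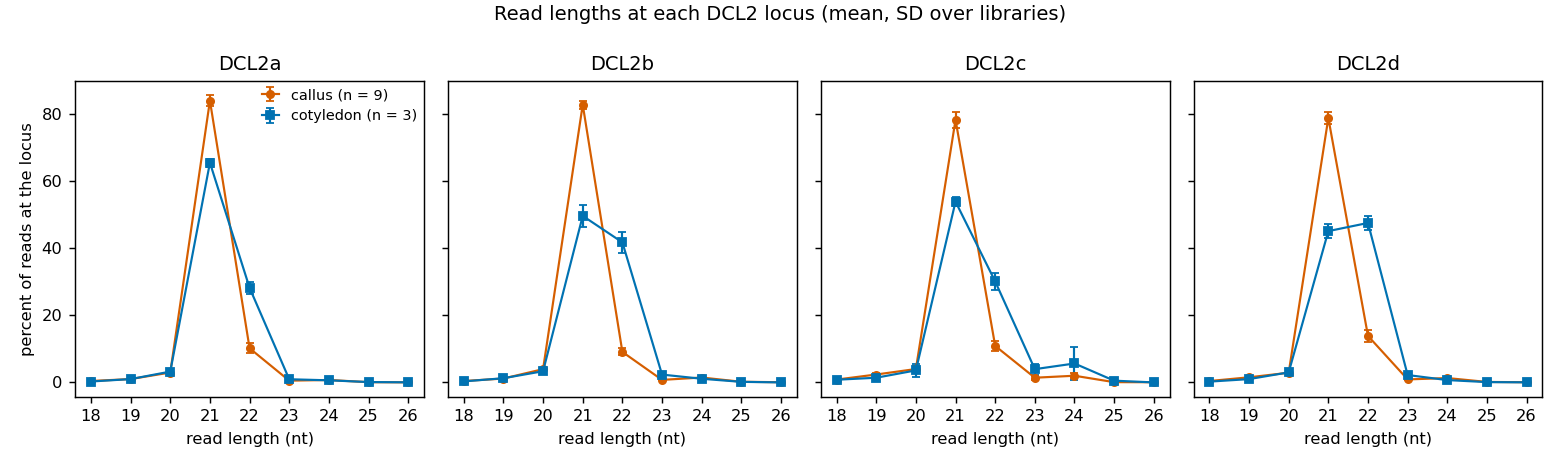
Percent of the reads at each DCL2 copy that had each length from 18 to 26 nt (mean, with SD bars) in 9 callus and 3 cotyledon libraries. The 22-nt share is 9.10% to 13.9% in callus and 28.2% to 47.6% in cotyledon, and the 21-nt peak is 78.4% to 84.1% in callus and 45.2% to 65.6% in cotyledon.

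The ratio of 21- to 22-nt reads at DCL2b was 1.02, 1.36 and 1.22 in cotyledon, 9.05, 7.38 and 8.62 after 12 days, 8.56, 10.3 and 8.82 after 14 days, and 11.8, 9.29 and 9.24 after 16 days. At DCL2d it was 0.954, 1.03 and 0.869 in cotyledon, 5.55, 5.0 and 4.89 after 12 days, 4.92, 6.72 and 5.69 after 14 days, and 7.84, 5.94 and 5.57 after 16 days. At both copies all callus libraries lay far above all cotyledon libraries, which were near equal numbers of both lengths. At DCL2a the ratio was 2.39, 2.48 and 2.13 in cotyledon, 8.54, 7.22 and 7.19 after 12 days, 6.83, 9.57 and 7.68 after 14 days, and 12.1, 9.07 and 8.01 after 16 days. At DCL2c it was 1.94, 1.75 and 1.70 in cotyledon, 5.99, 6.25 and 8.08 after 12 days, 6.44, 7.64 and 6.72 after 14 days, and 8.91, 9.11 and 6.83 after 16 days. No callus library overlapped a cotyledon library at any copy, the 4 libraries that stood apart included. At DCL2c 85.7% to 90.1% of the 21- and 22-nt reads were 21 nt in the callus libraries. In the shallowest case, DCL2c in cotyledon replicate 1, the share was 66.0% (95% exact binomial interval 59.7% to 71.9%, counting error only).

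**Figure D4:**
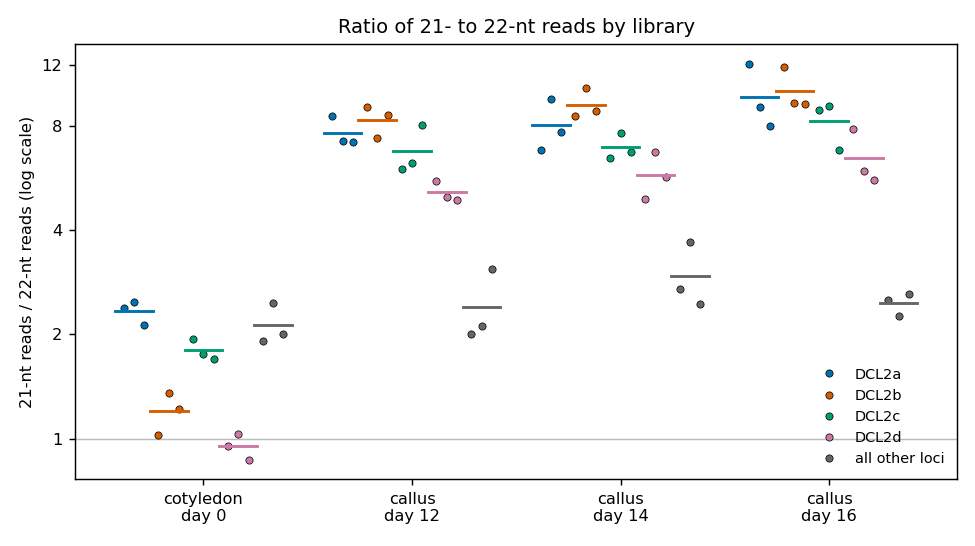
Ratio of 21- to 22-nt reads on a log axis at the 4 DCL2 copies and over all other gene loci together, in cotyledon (day 0) and 12-, 14- and 16-day callus; points are libraries and bars are group means. The copies lie between 4.89 and 12.1 in callus and between 0.869 and 2.48 in cotyledon, while the other loci lie between 2.01 and 3.69 in callus and between 1.92 and 2.46 in cotyledon.

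Summed over all other gene loci, the ratio was 2.01 to 3.69 in callus and 1.92 to 2.46 in cotyledon, so that the tissues overlapped. Of 439 loci with a mean of at least 10 reads at each length, DCL2b had the largest increase of the log2 ratio in callus over cotyledon (2.94) and DCL2d the next (2.59). DCL2c (2.01) ranked 6th and DCL2a (1.84) ranked 8th. The other 435 such loci had a median of -0.12, an upper quartile of 0.44 and a highest value of 2.40. A ratio higher in all callus than in all cotyledon libraries was found at 36 of the 439 loci (8.20%), and the 4 copies are among them by the choice described above.

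**Figure D5:**
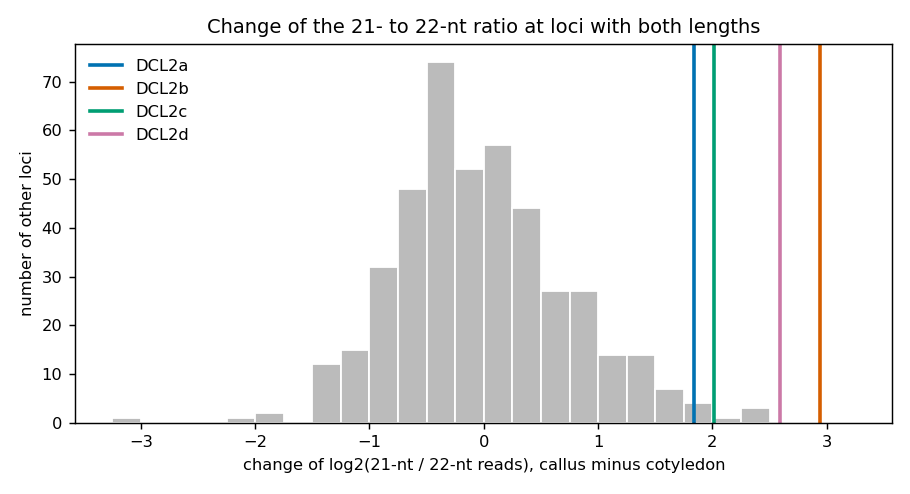
Change of the log2 ratio of 21- to 22-nt reads, callus minus cotyledon, at the 435 other gene loci with a mean of at least 10 reads of each length (histogram) and at the 4 DCL2 copies (vertical lines). The other loci centre on -0.12 and reach 2.40, and the copies lie at 1.84 to 2.94.

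Over all gene reads, the tissues differed less in the share of 21-nt reads once the copies were left out. The copies were chosen with callus against cotyledon known, so the smaller difference is a description and not a separate finding. Of all gene reads, 44.8 ± 4.0% were 21 nt in callus and 32.9 ± 4.96% in cotyledon, and the ranges (40.6% to 51.6% against 28.1% to 38.0%) did not overlap. Without the 4 copies the shares were 38.2 ± 4.98% in callus and 32.3 ± 4.87% in cotyledon, and the ranges (32.6% to 47.2% against 27.6% to 37.3%) overlapped. Leaving out DCL2b alone gave 41.1% in callus and 32.8% in cotyledon. The 21- to 22-nt ratio of all gene reads was 3.19 ± 0.48 in callus and 2.05 ± 0.261 in cotyledon, and without the copies 2.61 ± 0.522 in callus and 2.13 ± 0.296 in cotyledon.

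The order of the copies by reads differed between the tissues. Of the family's reads, DCL2b held 56.6% to 59.3% in callus and 18.9% to 23.1% in cotyledon. DCL2d held 25.6% to 27.9% in callus and 44.9% to 49.7% in cotyledon, and DCL2a 12.7% to 14.0% in callus and 25.2% to 33.5% in cotyledon. DCL2c held 1.63% to 1.87% in callus and 2.00% to 2.82% in cotyledon. The make-up also depended on the length. In callus DCL2b held 58.8% of the family's 21-nt reads and 50.1% of its 22-nt reads, and DCL2d 25.8% and 35.2%. In cotyledon DCL2b held 20.4% of the 21-nt and 21.9% of the 22-nt reads, and DCL2d 41.5% and 56.6%. The sources used here do not give the lengths of the loci in the counting annotation, so these shares compare numbers of reads, not reads per length. Among all gene loci ranked by reads, DCL2b was 1st in 6 of 9 callus libraries and no lower than 3rd in the others, and lay between ranks 16 and 31 in cotyledon. The loci above it were Solyc03g119020.2 and Solyc12g040470.2 each time, with 73003 and 73049 reads against 50283 at DCL2b in day-14 replicate 2, and smaller margins in day-12 replicate 3 and day-14 replicate 1. In those libraries too their counts were nearly equal (47713 and 47759, and 34571 and 34586). Whether the same reads were counted at both loci was not tested, and the ranks depend on it. DCL2d ranked 2 to 4 in callus and 5 to 13 in cotyledon, DCL2a 4 to 8 in callus and 14 to 16 in cotyledon, and DCL2c 29 to 43 in callus and 116 to 199 in cotyledon.

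Within a library the copies differed from each other in their 21- to 22-nt ratio. DCL2d had a lower ratio than each of the other copies in 12 of 12 libraries. The mean log2 difference was 0.73 ± 0.34 for DCL2a minus DCL2d, 0.59 ± 0.20 for DCL2b minus DCL2d and 0.48 ± 0.32 for DCL2c minus DCL2d (SD). An exact paired permutation test, two-sided, gave p = 0.000488 for each, the smallest that 12 pairs allow, and 0.000977 after Benjamini-Hochberg adjustment over the 6 pairs of copies. DCL2a was above DCL2c in 10 of 12 libraries, by 0.25 ± 0.20 (exact permutation test, adjusted p = 0.00439). DCL2b minus DCL2a was -0.14 ± 0.52 over the 12 libraries and DCL2b minus DCL2c 0.11 ± 0.47, and neither passed the test (adjusted p = 0.429 and 0.433, exact permutation test). Without 1 library at a time DCL2b minus DCL2a was -0.18 to -0.041, and -0.041, -0.074 and -0.079 without cotyledon replicates 1, 2 and 3. DCL2b minus DCL2c was 0.064 without day-12 replicate 1, its lowest value, and 0.20 without cotyledon replicate 1, its highest. The order of both of these pairs differed between the tissues, and that difference was not tested. The 9 callus libraries alone were an alternative to the test over 12, which pooled the callus days and was adjusted over its own 6 pairs. There DCL2b was above DCL2a by 0.14 ± 0.12 (8 of 9 libraries, exact permutation test, adjusted p = 0.0141) and above DCL2c by 0.34 ± 0.18 (9 of 9, adjusted p = 0.00586). In the 3 cotyledon libraries DCL2b was below DCL2a by 0.97 on the log2 scale (-0.97 ± 0.23) and below DCL2c (-0.59 ± 0.29), where 3 pairs cannot give an exact permutation p below 0.25. The 12 libraries are not replicates of 1 condition, and the p over all 12 describes the order of the copies within libraries. The copies and these tests were chosen with earlier results of these data known, so the p-values are a description and not independent evidence. Other pairs of loci were not compared in this way.

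Between the callus days no DCL2 copy passed the test. With edgeR's quasi-likelihood test and Benjamini-Hochberg adjustment over 6729 loci, 0 of 4 copies were called between days 12 and 14, 12 and 16 or 14 and 16. The background was 0.00%, 0.0594% and 0.00% of loci called, and 594, 561 and 358 loci had an unadjusted p under 0.05. DESeq2 called 19, 13 and 2 loci and 0 copies. The log2 changes of the copies ran from -0.23 to -0.14 for day 14 over day 12, from -0.01 to 0.10 for day 16 over day 12, and from 0.18 to 0.26 for day 16 over day 14. With SE of 0.28 to 0.34, changes of that size were within the spread between libraries (adjusted p 0.870 to 0.996). Within a day the family's share of gene reads spanned 13.7% to 17.01% after 12 days, 10.7% to 17.3% after 14 days and 12.4% to 20.6% after 16 days. The family's share of gene reads, its RPM and each copy's share of the family's reads did not pass an exact permutation test over the 3 days (p = 0.229 to 0.582, adjusted p = 0.582 for all 6). These replicates were labelled as separate samples, and nothing in the labels says that they came from separate cultures, so that the p-values measure the spread between samples, which may be technical.

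The 21- to 22-nt ratio of the copies did not pass the test between callus days either. An exact permutation test of the log2 ratio over the 3 days gave p = 0.207 to 0.271 (adjusted p = 0.271 for all 4 copies, smallest possible p 0.00357). At day 16 over day 12 the log2 ratio differed by 0.33 (SE 0.16) at DCL2a, 0.27 (SE 0.14) at DCL2b, 0.30 (SE 0.19) at DCL2c and 0.31 (SE 0.15) at DCL2d. In edgeR's test of the ratio over 434 loci, those differences had adjusted p of 0.414 to 0.661, and 0.00% of loci were called in each of the 3 comparisons of days, with 16, 51 and 26 loci at an unadjusted p under 0.05. The highest ratio of DCL2a, DCL2b and DCL2d was in day-16 replicate 1, and the other day-16 libraries lay within the range of days 12 and 14 at these copies. At DCL2c day-16 replicates 1 and 2 (8.91 and 9.11) lay above every library of days 12 and 14 (5.99 to 8.08), and replicate 3 (6.83) within their range. Without day-16 replicate 1 the log2 change of day 16 over day 12 was 0.16 at each of DCL2a, DCL2b and DCL2d and 0.24 at DCL2c (edgeR adjusted p = 0.933 for each).

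Other loci of the small RNA pathway that were listed for comparison had far fewer reads than the DCL2 copies, and loci outside the list were not examined. Of 12 identifiers listed for Dicer-like, RNA-dependent RNA polymerase and ARGONAUTE genes, 11 had a row, with 31 to 1150 reads over all 12 libraries and at most 155 in 1 library. DCL2c, the copy with the fewest, had 14327 reads. The list, like the copies, was chosen with earlier results of these data known, and its counts are a description. Of its 9 loci tested by edgeR, 6 were higher and 2 lower over all callus (adjusted p under 0.05), where 18.4% of all loci were higher and 22.5% lower. At days 12, 14 and 16 alone 6, 6 and 5 were higher, where 15.3%, 14.3% and 14.0% of all loci were, and 0, 1 and 0 were lower, where 18.4%, 17.0% and 17.1% of all loci were. The list's median log2 change over all callus was 1.78, against 0.13 over all loci, and no listed locus was called between callus days. Loci next to DCL2b, DCL2c and DCL2d had far fewer reads than these copies. The 25 other identifiers numbered next to them on chromosome 11 had 0 to 1372 reads over the 12 libraries, and of the 5 that were tested by edgeR 0 were higher and 1 was lower over all callus, where 18.4% of all loci were higher and 22.5% lower.

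Over all 12 libraries the loci whose TMM-scaled log2 CPM followed DCL2b most closely, of 6725 others, were Solyc04g007240.1 (Pearson r = 0.986) and Solyc09g098510.4 (r = 0.986). Solyc04g007240.1 had 282 to 447 reads in callus libraries and 15 to 32 in cotyledon libraries. Over the 9 callus libraries alone they were Solyc11g064770.3 (r = 0.942) and Solyc12g096500.2 (r = 0.933). Solyc12g096500.2 had only 5 to 27 reads in a callus library. The other 3 copies followed DCL2b over the callus libraries with r of 0.964 to 0.983. These values are descriptions, and the libraries compared share depth, scaling and, over all 12, the difference between tissues. Whether the same reads were counted at several copies is not known, and its part in the correlations among copies was not tested.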

How the data were processed

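Small RNAs of 3 cotyledon and 9 callus libraries were sequenced by the authors after ligation of adapters to RNA ends, PCR and gel selection, per the labels' protocols. The tools were fastp, Bowtie and DESeq2, per the submitters' processing notes, and the sources used here do not name their versions, their settings or the genome. The authors deposited raw counts per gene locus in 108 columns, 9 read lengths (18 to 26 nt) in 12 libraries, per the file headers. They also deposited TPM per read length and strand, which gave each library's total, since the counts divided by TPM gave 1 constant per library (largest misfit 0.053 reads). The authors' deposited comparisons hold log2 fold changes and p-values per length, of which log2 fold changes and adjusted p are quoted. There were 0 unused columns of other samples.

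The 4 copies, the pathway list and the tests were chosen with earlier results of these data known. Counts were summed over lengths and fitted for all loci with edgeR 4.0.16 (R 4.3.3, TMM scaling, filterByExpr, quasi-likelihood test, Benjamini-Hochberg adjustment at 0.05). This left 6729 loci, all 4 copies among them, with a common biological coefficient of variation of 0.332. SE is the log2 change over the square root of F. Ratios of 21- to 22-nt reads were tested by exact permutation over libraries (numpy 2.4.6), on the log2 scale with 0.5 added to each count. Over loci with a mean of at least 10 reads per length, they were also tested by edgeR. The exact binomial intervals came from scipy 1.17.1. Named loci were the 4 copies and, for likeness to DCL2b, the 2 loci of highest Pearson r over 12 and over 9 libraries, and any locus above DCL2b in reads in callus. Groups and replicate numbers came from sample titles. No 2 libraries of a group were copies of each other: a chi-square of their counts was 3.61 to 12.4 times its degrees of freedom. Alternatives were DESeq2 1.42.0, other scalings and filters, single read lengths, a replicate block, another pseudocount and leaving out libraries. The edgeR steps were tested on simulated data. No molecular identifiers were stated, so reads are not independent molecules and intervals cover counting error only.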

Additional observations from a re-analysis of the deposited data

How the results depend on the processing

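Over all callus, the 4 copies kept a log2 change above 0 over cotyledon under DESeq2, other scalings, no filter, a replicate block, 20- to 24-nt reads and without any single library. Counts of 1 read length kept the library scale of the main fit, that is, gene reads of all lengths with TMM scaling. With 21-nt reads alone the change was 1.41 for DCL2a, 4.203 for DCL2b, 2.27 for DCL2c and 2.02 for DCL2d, and with 22-nt reads alone -0.44, 1.31, 0.23 and -0.58. At days 12, 14 and 16 the 22-nt change was -0.28, -0.50 and -0.54 for DCL2a and -0.36, -0.73 and -0.64 for DCL2d.

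Between callus days 0 of 4 copies were called under any of the 21 alternatives, and the sign of these small log2 changes was not stable (34 of 252 values turned). For day 16 over day 12, library totals gave -0.17, -0.19 and -0.24 for DCL2a, DCL2b and DCL2d, and 22-nt reads alone -0.25, -0.21 and -0.28. DCL2c turned to 0.027 with no filter, 0.035 with 21-nt reads alone and 0.17 without the 4 libraries that stood apart, and DCL2d to -0.039 with 20- to 24-nt reads. For day 14 over day 12, DCL2a, DCL2b and DCL2c turned to 0.041, 0.024 and 0.014 without those 4 libraries, an alternative chosen after seeing the data. For day 16 over day 14, 22-nt reads alone gave -0.037 for DCL2a and -0.11 for DCL2c. Leaving out 1 library at a time gave, for day 14 over day 12, -0.36 to 0.017 for DCL2a and -0.32 to 0.032 for DCL2b. For day 16 over day 12 it gave -0.20 to 0.24 for DCL2a, -0.26 to 0.23 for DCL2b, -0.29 to 0.13 for DCL2c and -0.28 to 0.18 for DCL2d. For day 16 over day 14 it gave -0.053 to 0.45, -0.13 to 0.40, -0.11 to 0.42 and -0.053 to 0.47. The cause was not tested. Other counts were 36, 51 and 32 loci called between the 3 pairs of days with no filter.

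The replicate numbers did not pair the libraries: same-numbered libraries correlated at -0.34 to 0.28 in their deviations from the group means, over 0.1 in 5 of 18 pairs, and 1 of 12 libraries correlated best with its own number. The replicate block changed no call of a copy and turned DCL2c at day 16 over day 12 to 0.015.

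Of the 6 pairs of copies, DCL2b minus DCL2c turned to -0.74 percentage points when the 21-nt share of 21- and 22-nt reads replaced the log2 ratio. In callus alone DCL2b minus DCL2a was 0.14 and DCL2b minus DCL2c 0.34, and in cotyledon alone DCL2b minus DCL2c was -0.59. The other pairs kept their sign in cotyledon alone at 0.33 for DCL2b minus DCL2d, 1.29 for DCL2a minus DCL2d, 0.92 for DCL2c minus DCL2d and 0.38 for DCL2a minus DCL2c, where 3 libraries cannot pass the test. No ratio between callus days passed the test under any alternative run. Leaving out 1 library at a time, the edgeR log2 ratio change of day 14 over day 12 was -0.072 to 0.17 for DCL2a and -0.031 to 0.18 for DCL2c. Depth limits DCL2c in cotyledon most, at 309 to 479 reads per library.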
